A study of Mus musculus with 12 samples.

Results

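The general adipogenic transcription factors are described here in mouse brown adipose tissue (BAT), which burns lipid to give heat, through 7 genes: Cebpa, Cebpb, Cebpd, Pparg, Rxra, Rxrg and Klf15. They were chosen as the rows of the deposited count table that carry these symbols, which are 7 of its 24197 genes, and all 7 passed the filter on low counts, as did 15265 genes in all. RNA was sequenced from 12 libraries in 4 groups of 3, all from animals of 8 to 10 weeks. Mutant animals were Adipoq-Cre+; Ebf2 fl/fl, and control animals were Adipoq-Cre-; Ebf2 fl/fl, so both genotypes carry the floxed alleles and only mutants carry the recombinase. One mutant and one control group spent 1 week in the cold at 4 °C, and the other two stayed at room temperature. Cre under the Adipoq promoter acts in adipocytes, so other cells of the tissue keep Ebf2, a transcription factor of brown adipocytes. The labels do not say that the 3 libraries of a group came from separate animals, so p-values here reflect only the variation among these libraries, some or all of which may be technical.

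Fat cell differentiation runs through a cascade of transcription factors. C/EBPB and C/EBPD are bZIP proteins that act early and switch on Pparg and Cebpa, whose products then maintain each other's expression and that of the genes of the mature adipocyte. PPARG is a nuclear receptor that binds DNA as a heterodimer with a retinoid X receptor, such as RXRA or RXRG. KLF15 is a zinc finger protein that is induced late in adipogenesis and by glucocorticoids, and EBF2 is known to direct PPARG to brown fat genes.

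Library totals ran from 25835650 to 37927038 counts, and 3 counts correspond to between 0.0764 and 0.114 CPM (counts scaled to a common library total, with TMM factors). The targeted gene did not bear out the labels at room temperature, where Ebf2 had 65.2, 45.7 and 38.3 CPM in mutants against 47.4, 64.1 and 32.0 CPM in controls. Cold libraries had 28.7, 21.6 and 27.0 CPM in mutants against 52.3, 42.2 and 41.6 CPM in controls. Mutant and control therefore stand for libraries labelled so. The counts are per gene and of whole tissue, so Ebf2 reads from exons that a deletion may leave, or from cells that keep Ebf2, are not separated. All 10 brown adipocyte markers and all 7 pan-adipocyte markers were in the table. The pan-adipocyte markers summed to 31751 to 37753 CPM in cold mutants and 21996 to 24118.0 CPM in cold controls, and to 31541 to 37879 CPM in mutants and 22288.0 to 23218 CPM in controls at room temperature. Lpl made up most of the difference in the cold, averaging 15781 CPM in mutants and 5552 CPM in controls. The others averaged, in cold mutants and cold controls, 9833 and 9479 CPM for Fabp4, 1686 and 1704 for Lipe, and 787 and 769 for Adipoq. Pnpla2 averaged 3532 and 3163 CPM, Cidec 1624 and 1081, and Plin1 1491 and 1241, in the same order. Skeletal muscle markers (22 genes) were uneven within groups, at 102 to 23608 CPM in room temperature mutants and 112 to 30016 CPM in room temperature controls. The 4 libraries richest in them were mutant library 3 and control libraries 1 and 3 at room temperature, and control library 3 in the cold. Mutant library 3 in the cold stood apart, with 269 CPM of epithelial markers (24.6 CPM or less in every other library) and 10433 CPM of brown adipocyte markers, against 19509 to 21473 CPM in the other cold libraries. Eye lens markers were at 1.15 to 1.63 CPM in room temperature mutants and at 123 to 742 CPM in the other groups. The part of these differences in the results was not tested.

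The region before the start site is shown for the C/EBP and receptor genes whose levels are described most closely, taken from RefSeq on build GRCm38.p6 (the counts were made on mm9, so no count is tied to these coordinates). Of the 7 genes, 6 had an entry in the promoter table, with 10 start sites. Each sequence is the 250 bases upstream of a start site, on the + strand. Capitals mark matches, on either strand, to AGGTCA (nuclear receptor half-site), TTGCG (C/EBP half-site), CCCNNGGG (core of EBF sites), CACGTG (E-box), TGACG (CRE half-site), and the core promoter boxes CCAAT and TATAAA. Positions count back from -1, the base before the start site, to the leftmost base of the match. Cebpa, chr7:35119043-35119292, Cebpb, chr2:167688665-167688914, the start site of the adipocyte isoform of Pparg, chr6:115421816-115422065, and the upstream start site of Rxra, chr2:27676951-27677200, read as follows.
Cebpa: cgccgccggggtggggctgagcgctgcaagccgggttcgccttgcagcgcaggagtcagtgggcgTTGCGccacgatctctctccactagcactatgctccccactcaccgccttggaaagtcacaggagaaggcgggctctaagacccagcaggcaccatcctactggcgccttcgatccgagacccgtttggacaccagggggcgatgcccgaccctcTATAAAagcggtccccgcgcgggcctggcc
Cebpb: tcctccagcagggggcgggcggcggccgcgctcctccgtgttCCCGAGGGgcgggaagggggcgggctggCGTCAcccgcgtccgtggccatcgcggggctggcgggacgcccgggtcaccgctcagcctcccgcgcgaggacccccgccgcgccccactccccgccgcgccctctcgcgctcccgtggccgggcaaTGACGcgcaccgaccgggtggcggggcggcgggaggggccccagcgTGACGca
Pparg: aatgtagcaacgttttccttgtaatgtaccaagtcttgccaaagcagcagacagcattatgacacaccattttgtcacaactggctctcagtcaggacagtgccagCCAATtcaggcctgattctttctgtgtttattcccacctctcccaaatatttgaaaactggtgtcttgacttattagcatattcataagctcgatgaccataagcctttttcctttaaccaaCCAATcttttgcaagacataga
Rxra: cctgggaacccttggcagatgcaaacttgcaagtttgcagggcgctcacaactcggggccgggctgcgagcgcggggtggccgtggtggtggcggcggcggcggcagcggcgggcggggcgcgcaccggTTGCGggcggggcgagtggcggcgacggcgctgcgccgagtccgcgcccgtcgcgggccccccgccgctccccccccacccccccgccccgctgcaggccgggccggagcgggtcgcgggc
The Cebpa promoter held TTGCG at -185 and TATAAA at -30, and that of Rxra held TTGCG at -121. The Cebpb promoter held the EBF core at -208 and TGACG at -180, -53 and -7, and no TTGCG. The adipocyte start site of Pparg held CCAAT at -144 and -22. Over the 32841 promoters of the table, counted over 250 bases upstream, TTGCG occurred in 14.5%, CCCNNGGG in 11.8%, TGACG in 17.8%, CCAAT in 33.9% and TATAAA in 12.4%. A match is only a description of these letters. Cebpd is named only.

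Cebpa was the member that differed between the genotypes at room temperature. It encodes C/EBPA, the factor that sustains the mature adipocyte and its insulin response. Its level was 1497, 1759 and 2029.8 CPM in mutants, against 849.7, 876 and 517 CPM in controls. Every mutant library lay above every control library, with a mean of 1762 ± 266 CPM in mutants and 748 ± 200.2 CPM in controls (SD, n = 3 each). The log2 fold change was 1.24 ± 0.22 (SE), 2.36-fold (edgeR quasi-likelihood test, adjusted p = 0.00673). Leaving out each library in turn gave log2 fold changes from 1.03 to 1.37 and adjusted p from 0.00428 to 0.0332. Without the 4 muscle-rich libraries, which leaves 1 control library at room temperature, the log2 fold change was 0.90 and the call was lost. With all 12 libraries and muscle transcripts as a covariate the call was kept. In bulk tissue, more cells of a type and more RNA per cell cannot be told apart.

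In the cold the genotypes overlapped in Cebpa. Its level was 951, 803 and 1054 CPM in mutants, against 678, 904 and 718 CPM in controls (0.29 ± 0.22 on the log2 scale, SE, edgeR adjusted p = 0.562). The mutant groups differed by temperature. Cold mutants lay below room temperature mutants in every library, with a log2 fold change of -0.91 ± 0.22 (0.531-fold, edgeR adjusted p = 0.0145). Among controls the same contrast was 0.04 ± 0.22 (edgeR adjusted p = 0.942). Both contrasts of Cebpa that edgeR called share the room temperature mutants, at 1762 CPM on average. The other groups averaged 748 CPM (room temperature controls), 936 CPM (cold mutants) and 767 CPM (cold controls). Room temperature mutants were also the group with few eye lens transcripts, and their Ebf2 values overlapped those of controls. The part of these differences in the contrasts was not tested. The interaction, the cold effect in mutants minus that in controls, was -0.95 ± 0.31 on the log2 scale, with an unadjusted p of 0.00995 and an edgeR adjusted p of 0.235, so edgeR did not call the 2 cold effects different. With limma-voom the interaction was called (-1.34, adjusted p = 0.0171). The fall in mutants kept its direction when each library was left out, with log2 fold changes from -1.02 to -0.81 and adjusted p from 0.00709 to 0.0621. Its call, though, was lost without room temperature mutant library 3 (adjusted p = 0.061), cold mutant library 1 (adjusted p = 0.0542) or cold mutant library 2 (adjusted p = 0.0621), and without the 4 muscle-rich libraries (-0.80). The call was kept with muscle transcripts as a covariate.

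The early C/EBP genes did not follow Cebpa. Cebpb encodes the early bZIP factor that is also induced by cAMP signalling in brown fat, and it had 370.4, 225 and 189 CPM in mutants against 279, 221 and 267 CPM in controls at room temperature. The cold values were 291, 339 and 236 CPM in mutants against 244, 313 and 269.6 CPM in controls. The groups overlapped in every contrast, and the log2 fold changes for genotype were 0.03 ± 0.23 at room temperature (SE; edgeR adjusted p = 0.96) and 0.07 in the cold (edgeR adjusted p = 0.917). Cold against room temperature gave 0.14 in mutants and 0.11 in controls, neither called. Room temperature mutant library 1 held the highest value of all 12 libraries and mutant library 3 the lowest, so the mutants alone spanned the whole range of this gene.

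Cebpd, the partner of Cebpb in early adipogenesis and a gene induced by glucocorticoids and inflammatory signals, was the scarcest member, with 176 to 588 counts a library. At room temperature it had 9.52, 7.21 and 11.3 CPM in mutants against 16.1, 8.36 and 10.8 CPM in controls. The cold libraries held 6.32, 6.37 and 8.16 CPM in mutants against 9.36, 8.72 and 7.96 CPM in controls. All 4 contrasts between groups overlapped. The log2 differences were -0.33 ± 0.24 for genotype at room temperature, -0.32 for genotype in the cold, -0.43 for cold in mutants and -0.44 ± 0.24 for cold in controls (SE; edgeR adjusted p = 0.503, 0.562, 0.264 and 0.299 in that order).

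Pparg, the nuclear receptor at the centre of the cascade, showed no called difference. At room temperature it had 252, 221 and 180.3 CPM in mutants against 219, 204 and 251 CPM in controls (-0.05 ± 0.19 on the log2 scale, SE, edgeR adjusted p = 0.928). In the cold it had 194, 239 and 145 CPM in mutants against 224, 263 and 223 CPM in controls (-0.30 ± 0.19 on the log2 scale, edgeR adjusted p = 0.48). The lowest of these values, 145 CPM, belonged to cold mutant library 3, the library with epithelial transcripts and few brown adipocyte transcripts. Cold against room temperature gave -0.18 in mutants and 0.08 in controls on the log2 scale, neither called. Over all 12 libraries the highest level of Pparg was 1.82-fold the lowest, whereas that span was 3.93-fold for Cebpa. The counts are per gene, so the 2 protein isoforms of Pparg are not separated.

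In mutants the RXR genes, whose products are the DNA-binding partners of PPARG, lay on opposite sides of the controls at room temperature, though edgeR called neither. Rxra, the retinoid X receptor found in most tissues, had 129, 186 and 229.6 CPM in mutants against 109.8, 119 and 112 CPM in controls. All 3 mutant values lay above all 3 control values, yet the log2 fold change of 0.68 ± 0.21 (SE, 1.60-fold) was not called (edgeR adjusted p = 0.0894, unadjusted p = 0.00827). DESeq2 and limma-voom called it, as did the edgeR fits without room temperature mutant library 1 (adjusted p = 0.028) and without cold mutant library 3 (adjusted p = 0.046). In the cold it had 123, 126 and 174 CPM in mutants against 82.6, 119 and 108 CPM in controls, again without overlap, with a log2 fold change of 0.45 ± 0.21 (edgeR adjusted p = 0.346). The highest cold value, 174 CPM, was that of mutant library 3. Cold against room temperature gave log2 fold changes of -0.36 in mutants (edgeR adjusted p = 0.277) and -0.13 in controls, neither called by edgeR, while limma-voom called the one in mutants (-0.53, adjusted p = 0.0338).

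Rxrg, the retinoid X receptor restricted to tissues such as muscle and brain, had 32.9, 28.2 and 33.1 CPM in mutants against 33.5, 43.5 and 41.9 CPM in controls at room temperature. The mutants lay below the controls without overlap, though the nearest values, 33.1 and 33.5 CPM, were close, and the log2 fold change of -0.33 ± 0.14 was not called by edgeR (SE; adjusted p = 0.212, unadjusted p = 0.0377) but was by limma-voom (-0.41, adjusted p = 0.0277). In the cold it had 42.0, 42.3 and 31.7 CPM in mutants against 39.7, 43.2 and 41.1 CPM in controls. The low mutant value was that of library 3. Cold over room temperature gave log2 fold changes of 0.30 ± 0.14 in mutants (SE; edgeR adjusted p = 0.181) and 0.06 in controls (edgeR adjusted p = 0.831). The contrast in mutants was called by limma-voom (0.44, adjusted p = 0.0101) and by edgeR without cold mutant library 3 (0.42, adjusted p = 0.0385). Since skeletal muscle expresses this gene and muscle markers were uneven, the fit without the 4 muscle-rich libraries is given, which put the room temperature difference at -0.50 on the log2 scale (edgeR adjusted p = 0.385). Within each library, the Rxrg to Rxra ratio of counts (not corrected for length) was 0.255, 0.152 and 0.144 in mutants against 0.305, 0.365 and 0.374 in controls at room temperature. In the cold it was 0.342, 0.335 and 0.182 in mutants against 0.481, 0.361 and 0.379 in controls. The mutant ratios lay below the control ratios at both temperatures, narrowly in the cold (0.342 against 0.361), where the lowest, 0.182, was that of mutant library 3. Between genotypes 24.8% of all single genes did not overlap at each temperature, and no such share was taken for ratios.

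Klf15, the late factor that also drives amino acid breakdown, varied within groups as much as between them. At room temperature it had 56.3, 69.3 and 73.6 CPM in mutants against 60.7, 79.6 and 97.3 CPM in controls, with a log2 fold change of -0.26 ± 0.25 (SE; edgeR adjusted p = 0.641). In the cold it had 59.5, 64.3 and 97.1 CPM in mutants against 42.8, 70.7 and 73.2 CPM in controls, with a log2 fold change of 0.24 (edgeR adjusted p = 0.675). Its highest cold value was that of mutant library 3. The fitted direction turned between the temperatures, and the interaction of 0.50 ± 0.35 on the log2 scale was not called (edgeR adjusted p = 0.628).

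**Figure D1:**
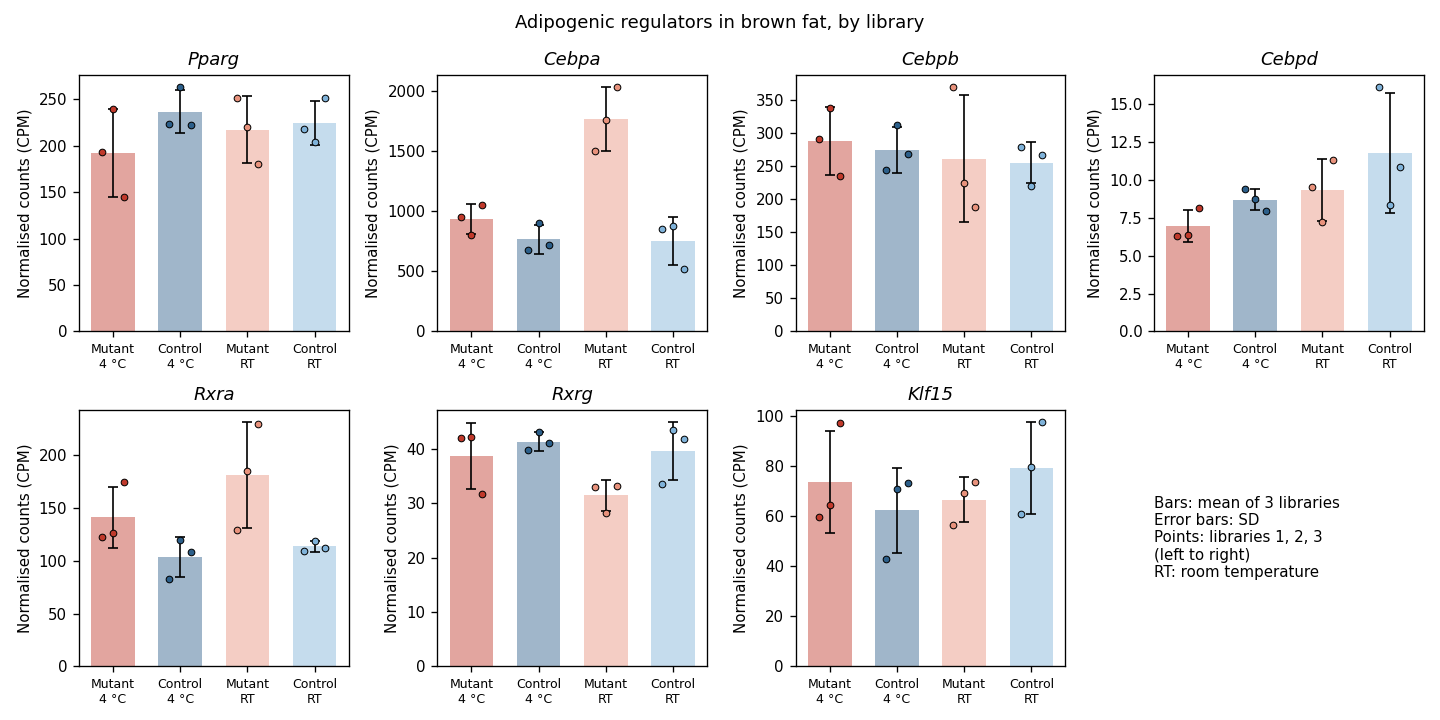
Normalised counts (CPM, linear axis from 0) of the 7 regulators in mutants at 4 °C, controls at 4 °C, mutants at room temperature (RT) and controls at RT, from left to right. Bars are means of 3 libraries, error bars SD and points libraries 1 to 3. Cebpa stands out at RT, with mutants at 1497 to 2029.8 CPM against controls at 517 to 876 CPM, while the groups overlap in Pparg, Cebpb, Cebpd and Klf15.

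Counted together at room temperature, 1 of the 7 members was called between the genotypes by edgeR, Cebpa, against a background of 6.24% of the genes tested. The groups did not overlap for 3 of the 7, Cebpa and Rxra above and Rxrg below, against 24.8% of all genes. The median log2 fold change of the 7 was -0.05, beside -0.04 over all genes. In the cold edgeR called 0 of the 7 between the genotypes, against 1.12% of genes, and 0 were below an unadjusted p of 0.05 or called by DESeq2 or limma-voom. One of the 7, Rxra, did not overlap, against 24.8% of all genes. Cold against room temperature called 1 of the 7 in mutants, Cebpa, where 17.4% of genes were called. It was also the 1 member whose groups did not overlap, against 32.6% of all genes, of which 16.7% lay above and 16% below. In controls it called 0 of the 7, against 6.62% of genes, and 0 at an unadjusted p under 0.05, with DESeq2 or with limma-voom. The groups overlapped there in all 7, whereas 33.3% of all genes did not overlap. The interaction called 0 of the 7, against 0.478% of genes. It held 1 at an unadjusted p under 0.05, with 0 called by DESeq2 and 1 by limma-voom, Cebpa in both cases. Over all genes limma-voom called 1121 there. Between 1 and 2 members were called at room temperature when each library was left out, and between 0 and 2 for cold in mutants. Without the 4 muscle-rich libraries 0 of the 7 were called in any of the 5 comparisons, where 129 genes in all were still called at room temperature and 1218 for cold in mutants. The comparisons share groups, so their values for a gene are not independent.

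**Figure D2:**
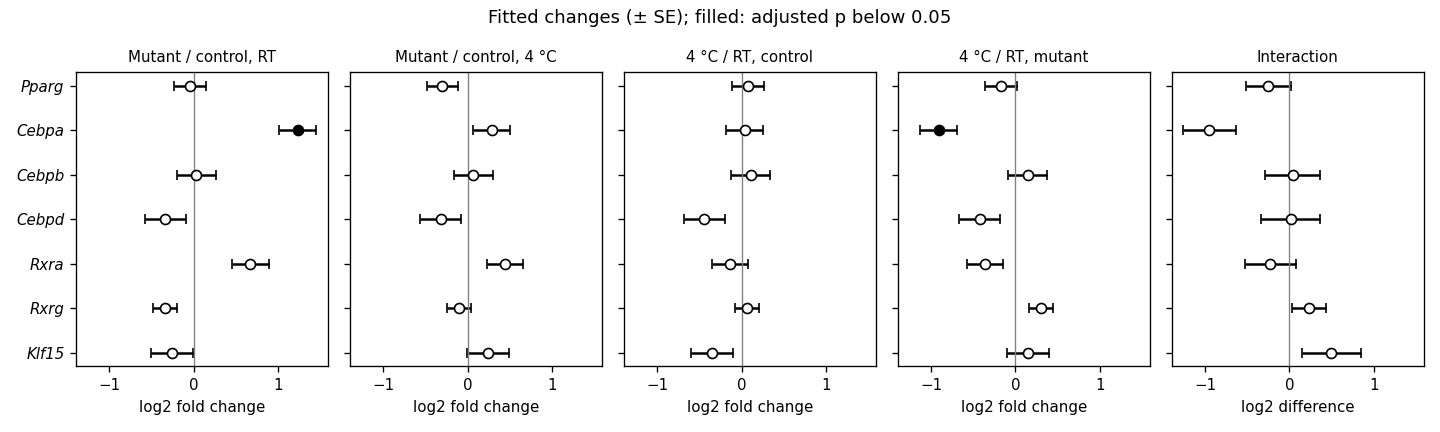
Fitted log2 fold changes (x axis, points with SE bars) of the 7 regulators for mutant over control at room temperature (RT) and at 4 °C, for 4 °C over RT in controls and in mutants, and for the interaction. Filled points are called below an adjusted p of 0.05 over all genes: Cebpa at 1.24 in the first panel and at -0.91 in the fourth are the 2 called values.

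Per length, the levels of the 7 genes spanned a wide range with a steady order at the top. Lengths are exon unions from GENCODE M21 on GRCm38, another build than that of the counts. In room temperature mutants Cebpa had 668 CPM per kb, followed by Cebpb at 174, Pparg at 91.5, Rxra at 35.5, Klf15 at 24.1, Rxrg at 13.7 and Cebpd at 2.49 CPM per kb. In room temperature controls the values were 284 for Cebpa, 170.1 for Cebpb, 94.4 for Pparg, 28.8 for Klf15, 22.3 for Rxra, 17.2 for Rxrg and 3.14 CPM per kb for Cebpd. Rxra and Klf15 thus exchanged places, and their ranges over libraries overlapped in both groups, at 25.3 to 44.99 for Rxra and 20.4 to 26.7 CPM per kb for Klf15 in mutants, and 21.5 to 23.3 for Rxra and 22.04 to 35.3 CPM per kb for Klf15 in controls. No other neighbours in the order overlapped at room temperature. In cold mutants Cebpa had 355, Cebpb 192, Pparg 81.0, Rxra 27.6, Klf15 26.7, Rxrg 16.8 and Cebpd 1.86 CPM per kb. In cold controls Cebpa had 291, Cebpb 183, Pparg 99.5, Klf15 22.6, Rxra 20.3, Rxrg 18.0 and Cebpd 2.32 CPM per kb. Rxra and Klf15 again overlapped in both cold groups, and in cold controls Rxrg overlapped both of them. On the opposite strand, Tmem189 overlaps Cebpb, Spidr overlaps Cebpd, and antisense models overlap Pparg and Cebpa. The strand setting of the counting is not given in the sources used here, so reads from such pairs cannot be told apart.

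The rise of Cebpa was compared with other adipocyte transcripts of the same library. The Cebpa to Cebpb ratio of counts was 4.04, 7.80 and 10.8 in mutants against 3.04, 3.96 and 1.94 in controls at room temperature. In the cold it was 3.27, 2.37 and 4.46 in mutants against 2.78, 2.89 and 2.66 in controls, where the groups overlapped. The ratio to Pparg was 5.95, 7.97 and 11.3 in mutants against 3.89, 4.30 and 2.06 in controls at room temperature. Set against the summed CPM of the 7 pan-adipocyte markers, a measure chosen after the values were seen, Cebpa came to 5.10% ± 0.644 in mutants and 3.30% ± 0.868 in controls at room temperature (SD, n = 3 each). The mutants lay between 4.37% and 5.58% and the controls between 2.31% and 3.93%, without overlap. In the cold Cebpa came to 2.69% ± 0.140 in mutants and 3.33% ± 0.395 in controls, with mutants between 2.53% and 2.79% and controls between 2.97% and 3.75%, so the order of the genotypes was the other way round. Rxra came to 0.524% in mutants and 0.503% in controls at room temperature on this measure, and Cebpb to 0.765% and 1.13%. Both overlapped. Mutants lay below controls without overlap there for Pparg (mean 0.637% and 0.993%) and Cebpd (0.0268% and 0.0518%). The same held for Rxrg (0.0910% and 0.176%) and Klf15 (0.193% and 0.351%). In the cold Pparg, Cebpd and Rxrg again lay lower in mutants without overlap, while Cebpb, Rxra and Klf15 overlapped. No share over all genes was taken for this measure. The sum is dominated by Lpl and Fabp4 and was higher in mutants at both temperatures. In the cold Lpl averaged 15781 CPM in mutants and 5552 CPM in controls, whereas Fabp4 averaged 9833 and 9479 CPM in that order. The order of the genotypes for Cebpa in the cold on this measure thus depends on Lpl being in the sum.

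**Figure D3:**
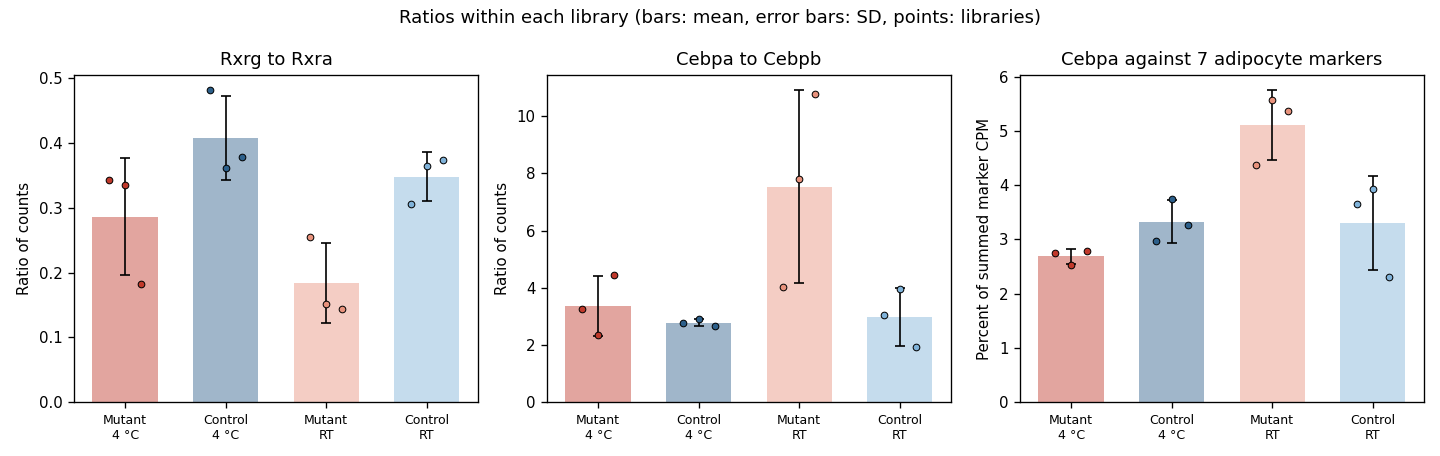
Values within each library for mutants at 4 °C, controls at 4 °C, mutants at room temperature (RT) and controls at RT, from left to right: the Rxrg to Rxra ratio of counts, the Cebpa to Cebpb ratio of counts, and Cebpa as a percent of the summed CPM of 7 pan-adipocyte markers. Bars are means, error bars SD (n = 3) and points libraries. Cebpa has its highest mean in RT mutants in both Cebpa panels, at 7.53 and 5.10%, and the Rxrg to Rxra ratio is lower in mutants than in controls at each temperature.

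Genes of similar pattern were sought among 10109 genes, by the root mean square difference of centred log2 CPM over the 12 libraries. For Cebpa, whose own root mean square deviation was 0.56 on the log2 scale, a near gene was Afap1 at 0.16, an actin filament adaptor. For Rxra the nearest were Trip4 at 0.13 and Uso1 at 0.14, and for Rxrg Azi2 at 0.09 and Mrps25 at 0.09. Pparg lay nearest to Slc25a38 and Ubl4, both at 0.09. For Cebpb they were Taf9 and Ppp2cb, both at 0.13. The nearest to Cebpd were Ifi204 and Thap3 at 0.17 each, and to Klf15 Foxk1 at 0.17 and Sidt2 at 0.18. The own deviations of these members were 0.38 for Rxra, 0.21 for Rxrg, 0.23 for Pparg, 0.27 for Cebpb, 0.36 for Cebpd and 0.32 for Klf15. A gene that varies little can have a near neighbour for that reason alone. These are descriptions over libraries that share groups, depth and tissue composition.

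Several known targets of C/EBPA and PPARG were higher in mutants at room temperature. Of 12 C/EBPA targets 6 rose and 0 fell, with a median log2 fold change of 1.31 beside -0.04 over all genes. Of 28 PPARG targets 13 rose and 3 fell, with a median of 0.76. Over all genes 3.92% were called higher and 2.32% lower. Here and below, the lists had been chosen with earlier results of these data known. Setting them beside all genes is therefore no test of them. Retn, which encodes the hormone resistin, averaged 699 ± 33.5 CPM in mutants and 106 ± 43.8 CPM in controls (SD, n = 3 each), which is 2.72 on the log2 scale. Irs1, an insulin receptor substrate, averaged 125 ± 27.6 CPM in mutants and 49.8 ± 4.20 CPM in controls, or 1.33 on the log2 scale. Among the PPARG targets, Plin4, a lipid droplet coat protein, averaged 2282 ± 202 CPM in mutants and 909 ± 121 CPM in controls (1.33 ± 0.25 on the log2 scale, SE, edgeR adjusted p = 0.0078). The fatty acid binding protein gene Fabp5 averaged 441 ± 26.6 CPM in mutants and 87.1 ± 41.8 CPM in controls (2.34 ± 0.43 on the log2 scale), a call lost without room temperature control library 3 (adjusted p = 0.0519). Calls that held whichever library was left out included Agpat2, Cidec, Irs1, Lipe, Plin1, Plin4 and Retn. The 3 PPARG targets that fell were Ucp1, the uncoupling protein of brown fat, Cpt1b, the muscle-type mitochondrial carnitine palmitoyltransferase, and Plin5, a lipid droplet protein of oxidative tissues.

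The calls of those falls, though not their direction, depended on single libraries. Ucp1 averaged 1308 ± 659 CPM in mutants and 4454 ± 1557 CPM in controls, and its call was lost without mutant library 2 (adjusted p = 0.0824) or 3 (adjusted p = 0.0844) or control library 2 (adjusted p = 0.0654) or 3 (adjusted p = 0.0789). Its log2 fold change was -1.77 ± 0.39 (SE) with all libraries and -1.70 to -1.47 in those 4 fits. Cpt1b averaged 490 ± 112 CPM in mutants and 1015 ± 243 CPM in controls, and its call was lost without mutant libraries 2 (-0.94 on the log2 scale, adjusted p = 0.0601) or 3 (-0.97, adjusted p = 0.0523), beside -1.05 ± 0.20 with all libraries. Plin5 averaged 123 ± 24.0 CPM in mutants and 211 ± 33.7 CPM in controls, or -0.77 on the log2 scale, and its call was lost in 10 of the 12 fits that each left out 1 library (-0.88 to -0.62 in those 10) and with the replicate number as a block (-0.76, edgeR adjusted p = 0.0546). The count of PPARG targets that rose was 7 without room temperature control library 3, and that of C/EBPA targets was 3 without that library or without room temperature mutant library 2 or 3. Without the 4 muscle-rich libraries both counts were 0. The lists share genes with the pan-adipocyte markers, whose sum was higher in mutants, and the part of adipocyte content in these counts was not tested.

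Other regulators of adipogenesis at room temperature are read against the 6.24% of all genes called, 3.92% higher and 2.32% lower, and a count of 1 in lists of this size is near that share. Among 13 other pro-adipogenic factors 1 rose, Srebf1, the sterol-responsive lipogenic factor, at 453 ± 37.0 CPM in mutants and 225 ± 33.3 CPM in controls (SD, n = 3 each), 1.01 ± 0.19 on the log2 scale (SE). That call was lost without control library 3 (edgeR adjusted p = 0.0532). Among 15 restraining factors 1 fell, Dlk1, the preadipocyte marker, at 0.451 ± 0.343 CPM in mutants and 2.40 ± 0.631 CPM in controls, a call lost in 10 of the 12 fits that each left out 1 library. None of 3 other C/EBP factors, 5 other PPAR, RXR and LXR receptors, 10 other Krueppel-like factors and 19 coregulators was called by edgeR. At an unadjusted p under 0.05 these lists held 1, 3, 1 and 5 genes, and DESeq2 called 0, 2, 0 and 3 of them, limma-voom 0, 3, 2 and 4. Over all genes DESeq2 called 1651 and limma-voom 2844. The KLF15 targets had 3 of 11 called higher, among them Acss2, the cytosolic acetyl-CoA synthetase, at 1190.4 ± 331 CPM in mutants and 371 ± 124 CPM in controls. Their median was 0.15 on the log2 scale, and the others that rose were Pck1 (0.85 ± 0.16 on the log2 scale, SE), lost without control library 3 (adjusted p = 0.0502), and Gpt (0.50 ± 0.13), lost in 10 of the 12 fits and with the replicate block (adjusted p = 0.0692). Of 14 glucocorticoid-induced genes 2 rose, Sult1a1 and Angptl4, and 1 fell, Cdkn1a. In these 3 the call was lost in 3 to 4 of the 12 fits. Pck1 and Angptl4 are also in the list of PPARG targets and are counted there too. Of all the calls in these lists, that of Cdkn1a was the 1 left without the 4 muscle-rich libraries.

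In the cold edgeR called 1 of the target genes between the genotypes. Of 28 PPARG targets 1 rose in mutants, against 0.727% of genes called higher and 0.393% called lower, and 0 of 12 C/EBPA targets were called. At an unadjusted p under 0.05 the PPARG targets held 11 genes, and DESeq2 called 8 and limma-voom 9 of the list. The C/EBPA targets held 3 such genes, and DESeq2 and limma-voom called 2 each. Over all genes DESeq2 called 717 and limma-voom 1119, and no share was taken at an unadjusted p. The gene that rose was Lpl, the lipoprotein lipase, at 15781 ± 6342 CPM in mutants and 5552 ± 358 CPM in controls (SD, n = 3 each; 1.51 ± 0.31 on the log2 scale, SE, edgeR adjusted p = 0.0438). Its call was lost in 7 of the 12 fits that each left out 1 library and with the replicate block (adjusted p = 0.0518). The medians were 0.19 for PPARG targets and 0.09 for C/EBPA targets on the log2 scale, beside -0.01 over all genes.

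In cold mutants some C/EBPA targets fell, and PPARG targets moved both ways. Values in parentheses are log2 fold changes of cold over room temperature mutants. Of 12 C/EBPA targets 0 rose and 4 fell, with a median log2 fold change of -0.83 beside -0.01 over all genes, of which 10.0% were called higher and 7.42% lower. Cfd, which encodes adipsin, averaged 1036 ± 212 CPM in cold mutants and 3842 ± 521 CPM in room temperature mutants (SD, n = 3 each; -1.89 ± 0.35 SE). Irs1 averaged 47.0 ± 12.1 CPM in cold mutants and 125 ± 27.6 CPM in room temperature mutants (-1.41). Retn averaged 207 ± 66.8 CPM in cold mutants and 699 ± 33.5 CPM in room temperature mutants (-1.76). Scd1, a stearoyl-CoA desaturase, was the other target that fell (-1.03), with its call lost in 6 of the 12 fits that each left out 1 library. Without the 4 muscle-rich libraries 2 C/EBPA targets fell. Of 28 PPARG targets 8 rose and 7 fell, or 5 and 5 without the muscle-rich libraries. Genes of heat production and fatty acid oxidation were among those that rose, with Ucp1 at 9505 ± 3169 CPM in cold mutants and 1308 ± 659 CPM in room temperature mutants (2.86 ± 0.41 SE), and Ehhadh (1.59), Cpt1b (1.23) and Plin5 (1.11). Those that fell included Plin4, at 727 ± 289 CPM in cold mutants and 2282 ± 202 CPM in room temperature mutants (-1.65), Adipoq (-1.31) and Angptl4 (-1.20). In the interaction 7 C/EBPA targets had an unadjusted p under 0.05, with 0 called by edgeR, 6 by DESeq2 and 7 by limma-voom. The PPARG targets held 12 such genes, with 0 called by edgeR, 8 by DESeq2 and 11 by limma-voom. Over all genes edgeR called 0.478%, DESeq2 436 genes and limma-voom 1121 genes in this contrast. No share over all genes was taken at an unadjusted p. The median of the 12 C/EBPA targets was -1.21 on the log2 scale and that of the 28 PPARG targets -0.27, beside 0.02 over all genes.

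Some other regulators were called with cold in mutants, with log2 fold changes given in parentheses. Of 5 other PPAR, RXR and LXR receptors 2 were called, of 10 other Krueppel-like factors 1 and of 13 other pro-adipogenic factors 2. Of 15 restraining factors 1 was called, of 19 coregulators 2 and of 3 other C/EBP factors 0. Over all genes 17.4% were called, so these counts are not read as a trait of the lists. Rxrb, a retinoid X receptor of broad expression, averaged 103 ± 13.4 CPM in cold mutants and 63.5 ± 1.82 CPM in room temperature mutants (0.69 ± 0.12 SE, edgeR adjusted p = 0.00233). Ppard, the PPAR found in most tissues, averaged 38.6 ± 0.886 CPM in cold mutants and 28.4 ± 0.504 CPM in room temperature mutants (0.44 ± 0.10). It also rose in cold controls, at 48.8 ± 2.39 CPM against 33.8 ± 1.95 CPM in room temperature controls (0.53 ± 0.10), a call lost without cold control library 2 (0.47, adjusted p = 0.0576) and without the 4 muscle-rich libraries (0.60, adjusted p = 0.189). Klf4, an early Krueppel-like factor, fell by 1.17 on the log2 scale in cold mutants, and Tle3, a PPARG coregulator that favours white fat genes, fell by 1.38. Ppargc1b, a coactivator of mitochondrial genes, rose by 0.97. These calls in mutants held whichever library was left out, and that of Ppard was lost without the 4 muscle-rich libraries (0.45, adjusted p = 0.0755). Zfp467 (-0.64), Ebf2 (-0.95) and Tcf7l2 (-0.77) also fell, with calls lost in 2, 2 and 4 of the 12 such fits. Ebf2 is the gene targeted in mutants. Its values in room temperature mutants overlapped those of room temperature controls, while cold mutants lay below cold controls. The part of the deletion in the fall of Ebf2 was not tested.

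**Figure D4:**
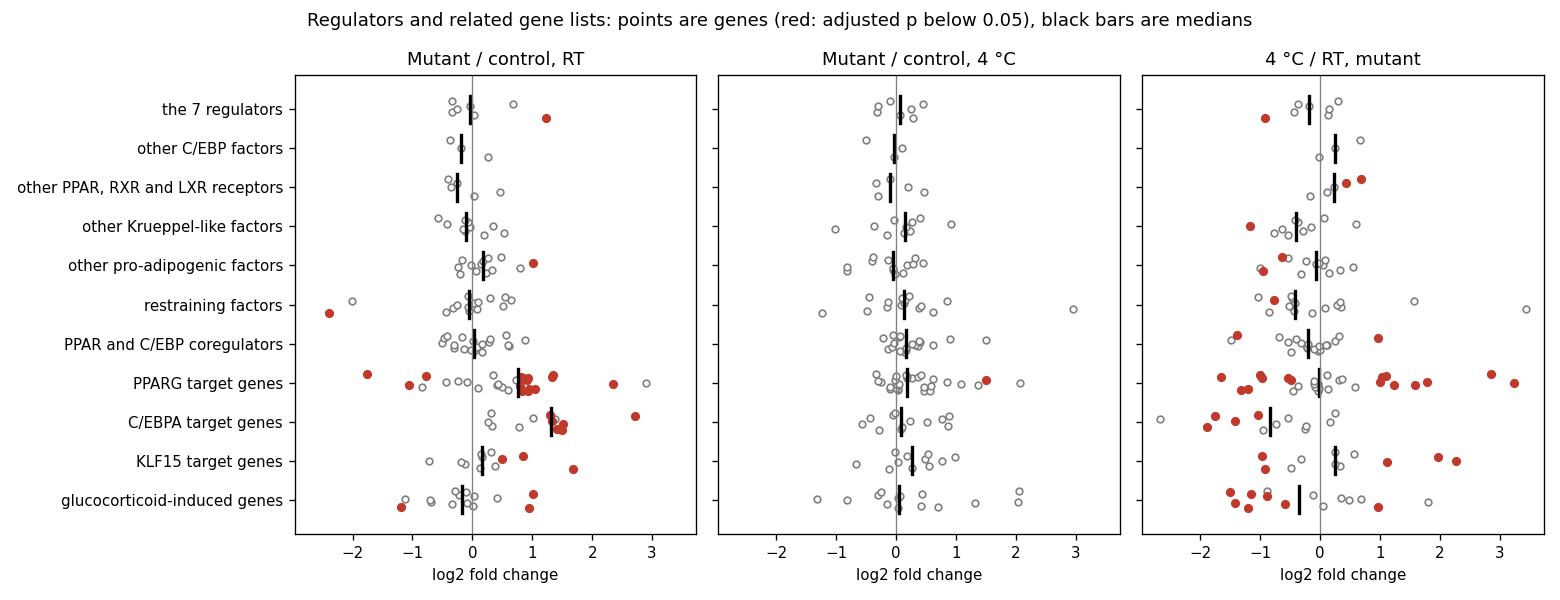
Log2 fold changes (x axis) of the 7 regulators and of 10 related gene lists for mutant over control at room temperature (RT), mutant over control at 4 °C, and 4 °C over RT in mutants. Points are genes, red where called below an adjusted p of 0.05, and black bars are list medians. The lists were chosen with earlier results of these data known. The medians of C/EBPA targets are 1.31, 0.09 and -0.83 in the 3 panels and those of PPARG targets 0.76, 0.19 and -0.02, while the 7 regulators stay at -0.05, 0.07 and -0.18.

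In controls none of the 7 regulators was called with cold, while some glucocorticoid-induced genes fell. Of 14 such genes 0 rose and 5 fell, against 4.31% of genes called higher and 2.31% called lower, and the median log2 fold change was -0.66 beside -0.01 over all genes. Fkbp5, a cochaperone of steroid receptors, averaged 9.59 ± 1.92 CPM in cold controls and 67.9 ± 19.4 CPM in room temperature controls (SD, n = 3 each; -2.83 ± 0.46 on the log2 scale, SE, edgeR adjusted p = 0.00756). Tsc22d3, which encodes the glucocorticoid-induced leucine zipper, averaged 38.6 ± 8.18 CPM in cold controls and 98.4 ± 31.5 CPM in room temperature controls (-1.35). Zbtb16 fell by 3.22 on the log2 scale, with its call lost in 5 of the 12 fits that each left out 1 library. Klf15 and Cebpd, which glucocorticoids also induce, had log2 fold changes of -0.35 and -0.44 in the same contrast and were not called (edgeR adjusted p = 0.426 and 0.299 in that order). The count of genes that fell was 2 without room temperature control library 2 or 3 or cold control library 1, and 3 without cold control library 2 or 3. Without the 4 muscle-rich libraries 0 of the 14 were called. In mutants 6 of the 14 fell in the cold and 1, Cdkn1a, rose, and between 3 and 6 fell when each library was left out. Tsc22d3 fell by 1.49 on the log2 scale there, a call that held whichever library was left out.

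Some targets of the adipogenic factors rose in cold controls. Of 28 PPARG targets 5 rose and 1 fell, and of 12 C/EBPA targets 3 rose and 0 fell, with medians of 0.24 and 0.20 on the log2 scale. Over all genes 4.31% were called higher and 2.31% lower, and the median was -0.01. Plin2, the lipid droplet protein of many cell types, averaged 1725 ± 224 CPM in cold controls and 623 ± 93.6 CPM in room temperature controls (SD, n = 3 each; 1.47 ± 0.20 on the log2 scale, SE), and Agpat2, an enzyme of triglyceride synthesis, rose by 1.29 on the log2 scale. Those 2 calls held whichever library was left out. They were lost without the 4 muscle-rich libraries, at 1.59 (adjusted p = 0.132) for Plin2 and 0.96 (adjusted p = 0.179) for Agpat2, and 0 genes of either list were called. Fasn (1.35 ± 0.33), Adrb3 (1.08 ± 0.27) and Slc2a4 (0.58 ± 0.14) were the C/EBPA targets that rose, and their calls were lost in 4, 7 and 7 of the 12 such fits. The PPARG count was 3 without room temperature control library 2, room temperature mutant library 3, cold mutant library 1 or 2 or cold control library 1, and 2 without room temperature control library 3 or cold control library 2 or 3. The C/EBPA count was 2 without room temperature control library 1, 1 without room temperature control library 2, room temperature mutant library 2, cold mutant library 1 or cold control library 1, and 0 without room temperature control library 3 or cold control library 2 or 3. Foxo1, a forkhead factor that restrains adipogenesis, fell to 56.9 ± 5.99 CPM in cold controls, against 213 ± 62.7 CPM in room temperature controls (-1.91 ± 0.31 SE), a call that held in all 12 such fits but not without the muscle-rich libraries (-2.40, adjusted p = 0.116). Klf9, Tle3, Ep300, Ebf3 and Mlxipl were called too, Klf9 at -0.89, Tle3 at -0.76, Ep300 at -0.68, Ebf3 at 0.71 and Mlxipl at 1.14, with each call lost in 3 or more of those fits. Of 15 restraining factors 1 was called, of 10 other Krueppel-like factors 1 and of 19 coregulators 2. Of 13 other pro-adipogenic factors 2 were called, of 5 other PPAR, RXR and LXR receptors 1 and of 3 other C/EBP factors 0. Over all genes 6.62% were called.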

How the data were processed

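Per the labels' protocols, total RNA of brown fat came from TRIzol and column extraction, and NEBNext Ultra library preparation followed. The authors deposited raw counts per gene, made with STAR and featureCounts on build mm9 per the submitters' processing notes. For tool versions, annotation, strand setting and multiply mapped reads, nothing is given in the sources used here.

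The 24197 genes of the 12 libraries were filtered with filterByExpr (minimum count 10, minimum total 15), which left 15265 tested genes. edgeR 4.0.16 in R 4.3.3 fitted 1 coefficient per group to all 12 libraries, with TMM factors, robust dispersions and the quasi-likelihood F-test. Genotypes were contrasted within each temperature, temperatures within each genotype, and the interaction was the last of the 5 contrasts. P-values are two-sided, adjusted by Benjamini-Hochberg over all tested genes, and called below 0.05. CPM uses TMM-scaled totals, with mean ± SD over 3 libraries, and SE is that implied by the F statistic. The procedure was checked on simulated counts.

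The members and the gene lists were chosen with earlier results of these data known. Lists are described by counts and medians, with no test of their own. Some lists share genes, such as Slc2a4 among C/EBPA and KLF15 targets, and a shared gene is counted in each. The rule named all 7 members. From each list and contrast it named the called genes of largest change, up to 3 per direction, or the most abundant gene where none was called, and for each member the 2 genes of nearest pattern with mean CPM of at least 5. Other genes, named to complete a count or as examples, were chosen after their values were seen. Results for some genes are not reported here.

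Replicates of a group differed far beyond counting error (chi-square per degree of freedom 38.2 to 234), so each library was counted as its own sample. Library numbers recur between groups, and the labels tie no number to a litter, batch or day. Same-numbered deviations from the group means, taken on log2 CPM (prior count 1), correlated above 0.1 in all 3 pairs between genotypes at room temperature (0.165, 0.719 and 0.488) and between temperatures in controls (0.142, 0.647 and 0.456). With 1 added to CPM before the log2, this held only between temperatures in mutants (0.264, 0.186 and 0.62). Pairing is therefore treated as unsettled.

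Alternatives were RLE factors, DESeq2 1.42.0, limma-voom (limma 3.58.1) with quality weights, no filter and a filter of 1 CPM in 3 libraries, a replicate block, a non-robust fit, a fit of only the groups compared, each library left out, the 4 muscle-rich libraries left out, and muscle transcripts as a covariate. Floors cover counting error only, because reads were not counted by molecular identifier.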

Additional observations from a re-analysis of the deposited data

How the results depend on the processing

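Of the fold changes of the 7 genes recomputed under the alternatives, 706 kept their direction and side of the threshold, 43 turned direction, 9 came to be called and 5 lost a call. The count of members called at room temperature was 2 with DESeq2, 3 with limma-voom, 0 without the 4 muscle-rich libraries, and 1 to 2 when each library was left out. For cold in mutants it was 3 with limma-voom, 0 without the muscle-rich libraries and 0 to 2 with each library left out, and for the interaction it was 1 with limma-voom. The replicate block changed no call among the 7 genes. At room temperature the log2 fold change of Cebpb turned to -0.149 with limma-voom and -0.002 with the replicate block, and without the muscle-rich libraries Pparg turned to 0.217 and Cebpd to 0.008. Klf15 turned to -0.028 in the cold and -0.101 for cold in mutants with limma-voom, which also put Pparg at -0.01 for cold in controls. Without the muscle-rich libraries Cebpa came to -0.144, Cebpd to 0.118 and Rxrg to -0.066 for cold in controls, Cebpb to -0.048 for cold in mutants, and Cebpb to -0.384, Cebpd to -0.389 and Rxra to 0.074 for the interaction. The interaction of Cebpd was -0.024 with limma-voom, -0.006 with the replicate block and -0.042 with the muscle covariate. With each library left out, direction turned for Cebpb (-0.303 to 0.227) and Pparg (-0.161 to 0.079) at room temperature, and for Cebpb (-0.064 to 0.195), Rxrg (-0.164 to 0.028) and Klf15 (-0.007 to 0.372) between genotypes in the cold. It turned for Pparg (-0.032 to 0.164), Cebpa (-0.17 to 0.167), Cebpb (-0.018 to 0.187), Rxra (-0.275 to 0.004) and Rxrg (-0.046 to 0.134) for cold in controls, for Cebpb (-0.051 to 0.478) and Klf15 (-0.101 to 0.268) for cold in mutants, and for Cebpb (-0.15 to 0.37) and Cebpd (-0.284 to 0.206) in the interaction. None of the values that turned had been called by edgeR with all libraries. The cause was not tested.

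Over all genes, edgeR called 952 at room temperature, 171 in the cold, 1010 for cold in controls, 2663 for cold in mutants and 73 for the interaction. DESeq2 called 1651, 717, 1951 and 436 in the comparisons other than cold in mutants, and limma-voom 2844, 1119, 3402, 5075 and 1121 in all 5. Fits of only the groups compared gave 552 at room temperature, 102 in the cold and 1633 for cold in mutants. Without the muscle-rich libraries, which has fewer samples, they were 129, 18, 13, 1218 and 26. With each library left out they ranged over 395 to 1512, 28 to 203, 313 to 1795, 1466 to 3630 and 13 to 204. The interaction gave 48 without robust fitting and 34 with the replicate block. Depth limits Cebpd most, at 176 to 588 counts a library.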

Other observations

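Targets of KLF15, which drives amino acid breakdown and gluconeogenic genes, moved both ways with cold in mutants. Of 11 tested 3 rose and 2 fell, with a median log2 fold change of 0.26 beside -0.01 over all genes, of which 10.0% were called higher and 7.42% lower. Hpd, an enzyme of tyrosine breakdown, averaged 6.13 ± 0.959 CPM in cold mutants and 1.56 ± 0.444 CPM in room temperature mutants (SD, n = 3 each; 1.97 ± 0.34 on the log2 scale, SE; edgeR adjusted p = 0.00223), a call that held whichever library was left out. Got1, an aspartate aminotransferase, rose by 2.27 and Bckdhb, a subunit of branched-chain ketoacid dehydrogenase, by 1.13 on the log2 scale, with calls lost in 9 and 3 of the 12 fits that each left out 1 library. Pck1, the gluconeogenic and glyceroneogenic enzyme, averaged 4050.1 ± 86.2 CPM in cold mutants and 7880.0 ± 347 CPM in room temperature mutants, a fall that held in all 12 such fits. Acss2 fell by 0.92 on the log2 scale, with its call lost in 6 of them. Without the 4 muscle-rich libraries 2 rose and 1 fell. The interaction called 1 gene of all the lists, Cdkn1a, a cell cycle inhibitor, at 1.89 ± 0.35 on the log2 scale (SE; edgeR adjusted p = 0.0449), with its call lost in 11 of the 12 fits that each left out 1 library.

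Among PPARG targets, Gyk, a glycerol kinase, averaged 618 ± 133 CPM in cold mutants and 178 ± 71.6 CPM in room temperature mutants (SD, n = 3 each; 1.80 ± 0.29 on the log2 scale, SE). Fgf21, a hormone released by cold brown fat, averaged 7.24 ± 3.55 CPM in cold mutants and 0.755 ± 0.489 CPM in room temperature mutants, a rise whose edgeR call was lost in 5 of the 12 fits that each left out 1 library. It averaged 1.73 ± 1.10 CPM in cold controls and 0.0914 ± 0.158 CPM in room temperature controls, which is at the floor of detection. Of the lists with no called gene at room temperature, the most abundant genes were Cebpg (0.26 on the log2 scale), Ppara (-0.36), Klf9 (-0.57) and Lpin1 (0.60), with edgeR adjusted p between 0.052 and 0.335.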
